A study of Mus musculus with 17 samples.

Results

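The genes described here are 45 components of transforming growth factor beta (TGF-beta) and bone morphogenetic protein (BMP) signalling, taken by symbol from a named list out of the 46073 genes measured. They comprise 10 ligands, 3 latent TGF-beta binding proteins, 11 receptors, 8 Smads, 4 extracellular antagonists, 5 intracellular inhibitors and the 4 Id genes, which are BMP targets. The list was not drawn from measured values, although it was compiled with earlier results of these data known. All 45 symbols matched a gene and all passed the filter of at least 0.5 FPKM (fragments per kilobase, scaled to library size) in at least 3 libraries. Their means over 15 libraries ran from 0.669 FPKM for Bmp5 to 85.6 FPKM for Id2, and 41 of the 45 averaged at least 1 FPKM.

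Polyadenylated RNA was sequenced from dissected frontal cortex; the mice were males of the FVB/N strain, and the labels give no age. The dTgDox mice (3 libraries) carried both the CamK driver and the pTRE-miR-211 responder, genotype dTg-211, and received doxycycline for 4 days. The dTg mice (6 libraries used) had the same dTg-211 genotype without doxycycline. The Ct mice (6 libraries) carried the CamK driver alone, genotype CamK, and received no doxycycline. Every group used thus carried the CamK driver, and none of the Ct mice were given doxycycline. The drug itself and the loss of the transgene product therefore cannot be told apart in dTgDox. The CamK promoter drives transgenes mainly in forebrain excitatory neurons, whereas the libraries hold RNA of the whole dissected tissue. pTRE is the tetracycline-responsive promoter, which in the Tet-off arrangement is active until doxycycline is given. Nothing in the labels says whether libraries came from separate animals. Header names of dTg replicates 5 to 7 share a stem, and p-values measure the spread between these libraries only.

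In this pathway, a ligand dimer brings type II and type I receptor kinases together, and the type I receptor phosphorylates a receptor-regulated Smad. TGF-betas and activins signal mainly through Smad2 and Smad3 and BMPs mainly through Smad1, Smad5 and Smad9, with Smad4 as the shared partner. Secreted binding proteins such as noggin hold ligands away from their receptors, and Smad6, Smad7, Smurfs and Ski proteins damp the signal inside the cell. In the adult brain the pathway is known for roles in glial differentiation, in the stem cell niches and in the response to injury.

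MiR-211 pairs with messenger RNAs mainly through its seed, bases 2 to 8, and human TGFBR2 has been described as a target in melanoma cells. The mature sequence (RefSeq, GRCm38.p6, chr7:64205831-64205852, plus strand) is shown with the seed in capitals because the matches that follow are its complement.
mmu-miR-211-5p: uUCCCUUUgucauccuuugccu

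The perfect DNA match of that seed is AAAGGGA, and an 8mer is this run followed by A. Searching the sense strand of the longest annotated 3′UTR (GENCODE M21, GRCm38) found an 8mer in 4 of the 45 members (8.89%), against 7.54% of 14375 tested genes with a 3′UTR. The 4 are shown in the sense orientation with the 8mer in capitals, since they are the members with the strongest match by letters alone.
Bmp3 (chr5:98880277-98880302, plus strand): atataaagaggAAAGGGAAgtagaga
Ltbp1 (chr17:75390589-75390614, plus strand): ctgcactgtgtAAAGGGAAagggaga
Ski (chr4:155154843-155154868, minus strand): agatttttaacAAAGGGAAaaaccaa
Tgfbr2 (chr9:116087866-116087891, minus strand): ctactctacatAAAGGGAAagtttta

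Counting also the 7mers (AAAGGGA alone, or AAGGGAA), which overlap the 8mer by letters, 16 members (35.6%) held a match, against 26.4% of the tested genes. Members' 3′UTRs were longer, with a median of 2656 bases against 1347 bases for the tested genes, and the part of length in the share was not tested. A match of letters is a description and not a site of binding.

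Across the libraries, depth estimated from the step of a single read in single-exon genes was 19.8 to 30.8 M reads, and 15762 to 16085 genes reached 1 FPKM. One deposited library stood apart. Its values under the titles dTg replicate 1 and Ntg replicate 1 were identical in all 46073 genes, although the Ntg label gives the responder without CamK. Its cerebellar neuron markers summed to 3915 FPKM, against 104 to 201 FPKM in the 15 others, so it was kept out of the main results. The miR-211 precursor row (Mir211) was at 0 FPKM in all 3 dTgDox libraries, at 21.6 and 24.8 FPKM in dTg replicates 2 and 5, at 0 in the other 4 dTg libraries and at 0 in all 6 Ct libraries. The mature miRNA is not measured in polyadenylated RNA. These values carry no read counts, and whether the row captures transcripts of the transgene was not tested. Neither a 0 nor a value above 0 is therefore read as the state of the transgene in a library. All 10 excitatory cortical neuron markers were above 1 FPKM in every one of the 15 libraries. They summed to 1333 to 1432 FPKM in dTgDox, 1261 to 1932 in dTg and 1270 to 1885 in Ct. Of the 10, 3 lay below every dTg and Ct library in each dTgDox library, and 1 (Neurod2) lay above. Over all tested genes, 8.06% lay wholly below and 8.06% wholly above.

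Marker sums of other cell types and regions also differed, some between the groups and some between libraries of a group. Their part in the differences below was not tested. Markers of hippocampal neurons summed to 692 to 714 FPKM in dTgDox, against 321 to 419 in dTg and 303 to 439 in Ct. Of the 21 hippocampal markers, 16 exceeded every dTg and Ct library in each dTgDox library, and none was at 0. The marker lists were chosen with earlier results of these data known, so this count is not independent of them. Oligodendrocyte markers summed to 2849 to 4284 FPKM in dTgDox, 1024 to 2792 in dTg and 1132 to 2455 in Ct. Oligodendrocyte precursor markers summed to 154 to 217 FPKM in dTgDox, 95.9 to 152 in dTg and 90.9 to 139 in Ct, with all 3 dTgDox libraries above the other 12. Of these 10 precursor markers, 1 (Enpp6) exceeded every dTg and Ct library in each dTgDox library, as did 3 of the 12 oligodendrocyte markers. Astrocyte markers summed to 1468 to 1727 FPKM in dTgDox, 1192 to 1580 in dTg and 1144 to 1376 in Ct. Striatal neuron markers summed to 96.1 to 133 FPKM in dTgDox, 117 to 541 in dTg and 146 to 999 in Ct. In these bulk samples, fewer cells of a type and less RNA per cell cannot be told apart. Leptomeningeal fibroblast markers summed to 130, 32.9 and 165 FPKM in dTgDox replicates 1, 2 and 3, against 42.1 to 85.9 in dTg and 48.6 to 73.6 in Ct. Choroid plexus markers reached 2340 FPKM in dTgDox replicate 3, against 85.2 and 128 in the other dTgDox libraries, 75.6 to 226 in dTg and 71.4 to 193 in Ct.

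**Figure D1:**
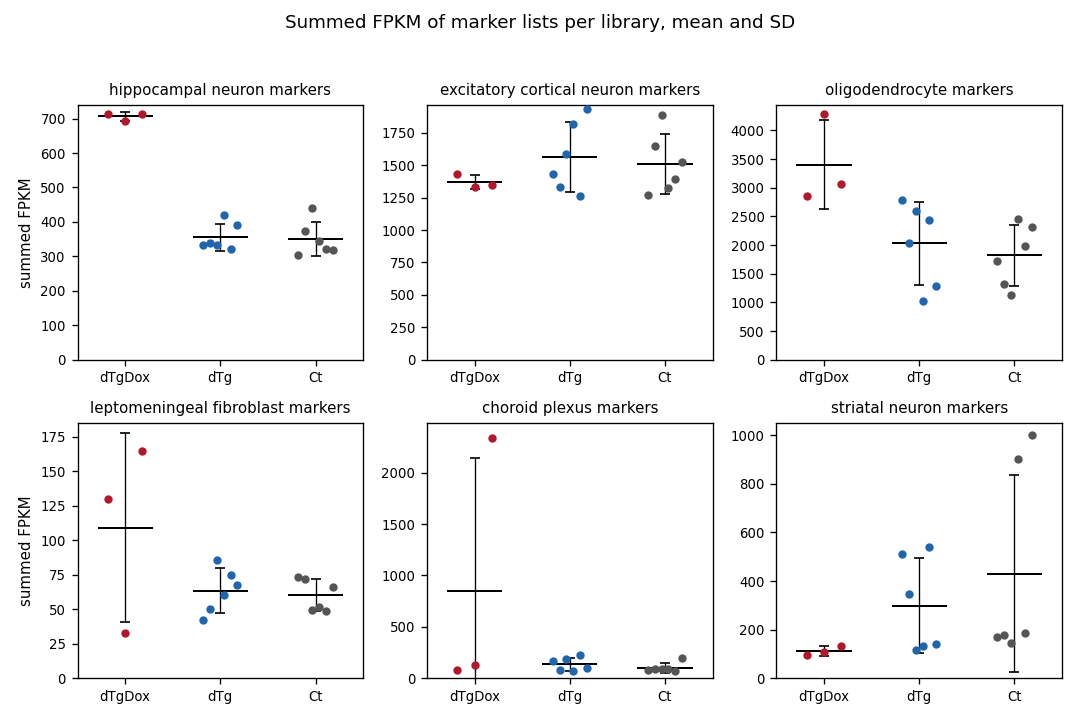
Summed FPKM of 6 marker lists in each library (points), with the group mean and SD; SD bars are drawn down to 0 at most. The 3 dTgDox libraries lie above all dTg and Ct libraries for hippocampal neuron and oligodendrocyte markers, and dTgDox replicate 3 stands alone for choroid plexus markers.

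The first comparison asked whether the pathway's genes differed in mice carrying the miR-211 transgene. No member was called between dTg and Ct cortex. The fit (limma on log2(FPKM + 0.5), Benjamini-Hochberg adjusted p under 0.05) called 0 of 45 members and 0 of 19064 genes (0%). At an unadjusted p under 0.05 it gave 1 member and 607 genes (3.18%). The members' differences ran from -0.23 to 0.31 log2 units with a median of -0.02, beside a median of 0.00 over all tested genes, and 19 of 45 were above 0. No member had dTg and Ct libraries that did not overlap, where 0.131% of all tested genes had. A fold change here is on the log2(FPKM + 0.5) scale, which understates the change of low genes.

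Tgfbr2, the type II receptor of the TGF-betas, had 3.58, 4.08 and 4.76 FPKM as the lowest, median and highest of the dTg libraries, against 3.44, 3.90 and 4.20 FPKM in Ct. The ranges overlapped, and the difference was 0.09 ± 0.10 log2 units (SE; 95% interval -0.12 to 0.29; unadjusted p = 0.377 by limma). Tgfbr1, the type I receptor that pairs with it, had 7.34, 7.51 and 8.83 FPKM in dTg, against 6.34, 7.496 and 8.66 FPKM in Ct, a difference of 0.06 ± 0.08. For Tgfb1, the TGF-beta ligand best known from immune cells and microglia, the values were 1.44, 2.72 and 3.41 FPKM in dTg and 1.66, 2.23 and 2.71 FPKM in Ct, a difference of 0.17 ± 0.16. Smad3 had 12.4, 13.8 and 17.7 FPKM in dTg, against 13.2, 14.9 and 20.6 FPKM in Ct, a difference of -0.15 ± 0.11. None of these 4 genes passed the test. Id1, a BMP target that encodes an inhibitor of basic helix-loop-helix factors, was the member below an unadjusted limma p of 0.05. It averaged 13.7 ± 2.17 FPKM in dTg and 11.9 ± 0.665 FPKM in Ct (SD), and its limma adjusted p was 0.9999.

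The 4 members with an 8mer had differences on both sides of 0 between dTg and Ct. Bmp3 differed by 0.07, Ltbp1 by -0.02, Ski by -0.06 and Tgfbr2 by 0.09 log2 units, and each 95% interval held 0. Over the 16 members with any match the median difference was -0.03 (range -0.15 to 0.17), and over the 29 without one it was -0.02 (range -0.23 to 0.31).

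**Figure D2:**
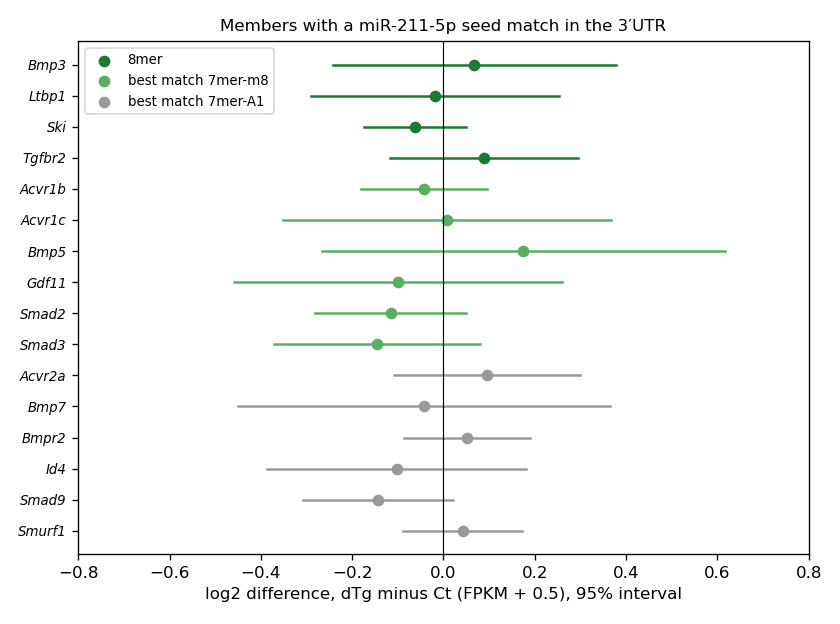
Fitted log2 difference, dTg minus Ct, for the 16 members with a miR-211-5p seed match in the 3′UTR, with 95% intervals, coloured by the strongest match. Every interval holds 0, and Bmp3 (0.07) and Tgfbr2 (0.09) lie on the higher side.

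The other comparisons asked what differed after 4 days of doxycycline. In dTgDox cortex the fitted level of Tgfb2, as FPKM + 0.5, was 3.53 times that in dTg, and that of Bmp3 was 0.332 times. Of 45 members, 1 was higher and 9 were lower in dTgDox than in dTg (22.2%), where 18.9% of all tested genes were called, 9.65% higher and 9.22% lower. Against Ct, 2 members were higher and 11 lower (28.9%), where 19.7% of genes were called, 9.86% higher and 9.85% lower. At an unadjusted p under 0.05 the counts were 18 members against dTg (all genes, 32%) and 20 against Ct (all genes, 32.6%). The share of members called lower, 20% against dTg and 24.4% against Ct, lay above those backgrounds, and the share called higher, 2.22% and 4.44%, lay below. Fst, among those called lower in each comparison, passed the filter through its dTg and Ct values. The median difference over the members was -0.06 against dTg and -0.05 against Ct, beside -0.01 over all genes in each. The comparisons share the dTgDox libraries, so their values are given side by side and are not independent. Setting the 3 dTgDox libraries against all 12 others, 2 members lay wholly above (4.44%, background 8.06%) and 8 wholly below (17.8%, background 8.06%).

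These counts rest on few libraries. Without dTgDox replicate 1, 2 or 3 the fit called 5, 9 and 6 members against dTg (11.1%, 20% and 13.3%), where 11%, 14% and 11.4% of all tested genes were called. Against Ct it called 9, 10 and 10 (20%, 22.2% and 22.2%), where 11.8%, 14.4% and 12% of genes were called. With the library of cerebellar marker content counted as dTg replicate 1, it called 4 members in each comparison (8.89%), where 8.01% of genes were called against dTg and 7.84% against Ct. In that fit 3 members were lower than in dTg (6.67%, all genes 3.28%) and 2 were lower than in Ct (4.44%, all genes 3.39%). Those 4 were Tgfb2, Smad1, Nog and Id2 against dTg, and Tgfb2, Chrd, Smad1 and Smad2 against Ct.

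**Figure D3:**
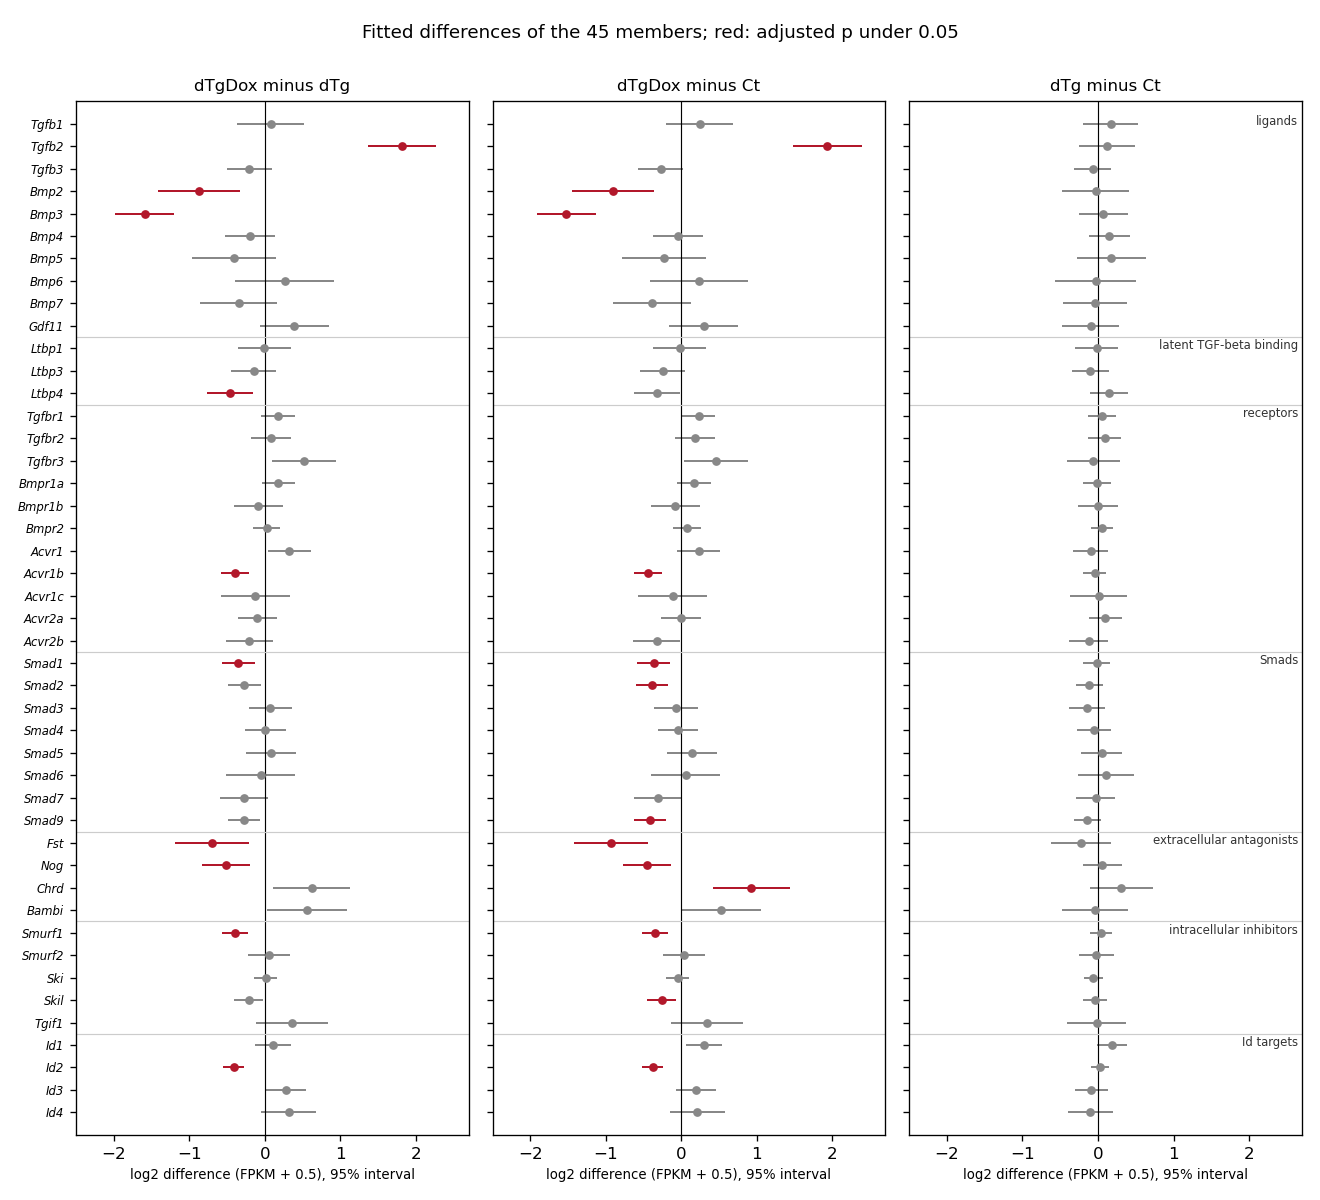
Fitted log2 differences of all 45 members with 95% intervals, in 3 panels (dTgDox minus dTg, dTgDox minus Ct, dTg minus Ct), ordered by role; red marks an adjusted p under 0.05. Tgfb2 lies at 1.82 and 1.93 and Bmp3 at -1.59 and -1.52 in the dTgDox panels, and no member is red in the dTg minus Ct panel.

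Among the ligands, Tgfb2 was higher and Bmp2 and Bmp3 were lower in dTgDox. Tgfb2, the TGF-beta isoform made by many neurons and astrocytes, had 10.7, 10.5 and 15.3 FPKM in dTgDox replicates 1, 2 and 3. In dTg its lowest, median and highest values were 2.37, 3.15 and 3.94 FPKM, and in Ct 2.11, 2.40 and 4.27 FPKM. All 3 dTgDox libraries lay above the other 12. The difference was 1.82 ± 0.21 log2 units against dTg (SE; limma adjusted p = 3.11e-05) and 1.93 ± 0.21 against Ct (adjusted p = 1.58e-05). It kept its call whichever library was left out and with all 16 libraries.

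Bmp3, a BMP family member known in bone for opposing other BMPs, moved the other way. It had 2.10, 1.08 and 1.93 FPKM in the 3 dTgDox libraries, against 5.05, 5.82 and 7.21 FPKM (lowest, median, highest) in dTg and 4.29, 5.58 and 7.85 FPKM in Ct. Every dTgDox library lay below all dTg and Ct libraries. The difference was -1.59 ± 0.18 against dTg (adjusted p = 2.81e-05) and -1.52 ± 0.18 against Ct (adjusted p = 3.9e-05). Each call held without any single library and ended with 16 libraries (adjusted p = 0.341 and 0.176), in which the added library had 0.0125 FPKM. Bmp3 carries the 8mer shown above, and any relation of that match to its lower level in dTgDox was not tested.

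Bmp2, a ligand that signals through Smad1, Smad5 and Smad9, had 0.689, 0.659 and 0.853 FPKM in dTgDox. Its dTg values were 1.29, 1.70 and 2.54 FPKM and its Ct values 0.978, 1.65 and 3.76 FPKM. The dTgDox libraries lay below the other 12, with the nearest Ct library 0.978 FPKM. Differences were -0.87 ± 0.25 against dTg (adjusted p = 0.0231) and -0.91 ± 0.25 against Ct (adjusted p = 0.0183). The call against dTg ended without dTgDox replicate 1, 2 or 3 (adjusted p = 0.0827, 0.0764 and 0.0536), and that against Ct without replicate 1 or 2 (0.0692 and 0.0649).

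The other 7 ligands did not pass. Tgfb1 had 2.89, 1.94 and 3.41 FPKM in dTgDox, a difference of 0.08 against dTg and 0.25 against Ct. Tgfb3 averaged 3.31 ± 0.248 FPKM in dTgDox, 3.90 ± 0.423 in dTg and 4.17 ± 0.861 in Ct (SD, n = 3, 6 and 6). Bmp4 averaged 1.43, 1.71 and 1.498 FPKM in the same order. The others include Gdf11, a relative of myostatin, at 5.21 FPKM in dTgDox, 3.89 in dTg and 4.29 in Ct.

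Bmp5, Bmp6 and Bmp7 form a closely related subgroup of ligands, and their dTgDox libraries disagreed with each other. Bmp7 had 3.10, 1.22 and 3.49 FPKM in dTgDox, against 2.27 to 3.92 in dTg and 2.52 to 4.73 in Ct. For Bmp6 the dTgDox values were 4.11, 1.46 and 5.22 FPKM, with 1.89 to 3.51 in dTg and 1.53 to 4.20 in Ct. Bmp5 had 0.379, 0.215 and 0.859 FPKM in dTgDox, against 0.432 to 1.204 in dTg and 0.321 to 0.923 in Ct. In each, dTgDox replicate 2 was the lowest of all 15 libraries, the same library whose leptomeningeal markers summed to 32.9 FPKM, the lowest of the 15. Across the members, replicate 2 was the lowest of the 3 dTgDox libraries for 27 of 45 (60%), against 34.3% of all tested genes. By role, these were 10 of 10 ligands, 10 of 11 receptors, 4 of 8 Smads, 1 of 4 extracellular antagonists, 1 of 5 intracellular inhibitors, 0 of 3 latent binding proteins and 1 of 4 Id genes. This pattern was noticed after the values were seen, and its relation to the marker sums was not tested.

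Latent TGF-beta binding proteins anchor secreted TGF-beta in the matrix. Ltbp4 had 10.7, 11.4 and 15.2 FPKM in dTgDox, against 13.7, 17.2 and 19.98 FPKM in dTg and 13.1, 15.7 and 18.2 FPKM in Ct. Replicate 3 overlapped both other groups. The difference of -0.46 ± 0.14 against dTg was called (adjusted p = 0.0277) but was not without dTgDox replicate 1 or 2 (0.149 and 0.105). That call was also lost with replicate number added to the fit (the replicate block, 0.241). Against Ct the difference of -0.32 ± 0.14 was not called (adjusted p = 0.111) unless replicate 3 was left out (0.0447). Ltbp1 and Ltbp3 did not pass, with differences of 0.00 and -0.15 against dTg and -0.02 and -0.25 against Ct.

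Of the 11 receptors, Acvr1b alone was called, and it was lower in dTgDox. Acvr1b encodes ALK4, the type I receptor of activins and Nodal that phosphorylates Smad2 and Smad3. It had 27.6, 27.7 and 26.8 FPKM in dTgDox, against 33.1, 36.6 and 39.4 FPKM in dTg and 33.5, 37.2 and 43.9 FPKM in Ct. The 3 dTgDox libraries lay close together and below the other 12. Differences were -0.40 ± 0.08 against dTg (adjusted p = 0.00288) and -0.44 ± 0.08 against Ct (adjusted p = 0.00136), and each held without any single library. With 16 libraries they were not called (adjusted p = 0.158 and 0.0527). With the replicate block the call against dTg was lost (0.0666).

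The TGF-beta receptors did not pass. Tgfbr2 had 5.11, 3.44 and 4.90 FPKM in dTgDox, overlapping dTg and Ct, and differed by 0.09 against dTg (adjusted p = 0.663; 95% interval -0.16 to 0.34) and 0.18 against Ct (95% interval -0.08 to 0.43). Tgfbr1 had 9.57, 7.81 and 8.97 FPKM, differing by 0.17 and 0.23 (adjusted p = 0.246 and 0.117). Tgfbr3, the coreceptor betaglycan, had 3.15, 2.14 and 4.54 FPKM in dTgDox, against 1.45 to 2.58 FPKM in dTg and 1.86 to 2.99 FPKM in Ct. Its differences of 0.52 and 0.45 were called only without dTgDox replicate 2 (adjusted p = 0.0197 against dTg and 0.0291 against Ct).

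BMP and activin receptors other than Acvr1b stayed within 0.33 log2 units of dTg and Ct. Bmpr2, the type II BMP receptor and the most abundant of these per length, averaged 19.7 ± 1.83 FPKM in dTgDox, 19.4 ± 1.56 in dTg and 18.6 ± 1.11 in Ct. Bmpr1a, a type I BMP receptor, averaged 15.02, 13.2 and 13.4 FPKM in the same order, and Bmpr1b averaged 5.45, 5.85 and 5.83. Acvr1, which encodes the BMP type I receptor ALK2, averaged 12.7 FPKM in dTgDox, 10.1 in dTg and 10.8 in Ct. Its difference of 0.33 against dTg (adjusted p = 0.0837) was called without Ct replicate 1 or dTg replicate 3 (0.0436 and 0.0352). Of the activin type II receptors, Acvr2a averaged 12.2, 13.1 and 12.3 FPKM in dTgDox, dTg and Ct, and Acvr2b 1.55, 1.87 and 2.09. Acvr2b was called against Ct without Ct replicate 2 (adjusted p = 0.0371) or with 13 libraries (without Ct replicate 2 and dTg replicate 7; 0.0453), and in no other fit run. Acvr1c (ALK7) had 3.89, 1.88 and 5.16 FPKM in dTgDox, with replicate 2 again lowest of all 15, and differed by -0.12 in each comparison.

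Smads that carry the BMP signal and the TGF-beta signal both included a member called lower in dTgDox against Ct, whereas Smad4 was not called. Smad1, a BMP-responsive Smad, had 6.28, 6.69 and 6.50 FPKM in dTgDox, against 7.29, 8.29 and 10.3 FPKM in dTg and 7.47, 8.61 and 9.46 FPKM in Ct. Every dTgDox library lay below all dTg and Ct libraries. Differences were -0.35 ± 0.10 against dTg (adjusted p = 0.0188) and -0.37 ± 0.10 against Ct (0.0143). Each ended without dTgDox replicate 1 (0.081 and 0.0655) or replicate 3 (0.0621 and 0.0507).

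Smad9, another BMP-responsive Smad, had 2.69, 2.42 and 2.79 FPKM in dTgDox, against 2.87, 3.29 and 3.68 FPKM in dTg and 3.26, 3.68 and 4.09 FPKM in Ct. The dTgDox libraries lay below the other 12. The difference of -0.42 ± 0.09 against Ct was called (adjusted p = 0.00623) and held without any single library, but not with 16 libraries (0.258). That of -0.27 ± 0.09 against dTg was not called (0.0556), except without dTg replicate 2 (0.0374) or without the trend and robust settings (0.0385). Smad5, the remaining BMP-responsive Smad, was not called and averaged 7.58 ± 0.888 FPKM in dTgDox, 7.11 ± 0.612 in dTg and 6.98 ± 1.64 in Ct.

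Smad2, which carries TGF-beta and activin signals, had 11.5, 10.5 and 11.8 FPKM in dTgDox, against 11.7, 13.6 and 15.7 FPKM in dTg and 12.7, 15.4 and 16.1 FPKM in Ct. It lay below Ct and overlapped the lowest dTg library. Against Ct the difference of -0.39 ± 0.10 was called (adjusted p = 0.0104), but not without dTgDox replicate 2 (0.0559) or with the replicate block (0.0547). Against dTg the difference of -0.27 ± 0.10 was not called (0.0592), except without Ct replicate 2 (0.0418) or dTg replicate 4 (0.027). Smad3, its close relative, had 15.5, 13.6 and 15.2 FPKM in dTgDox and differed by 0.08 and -0.07, with overlapping groups. Smad4 averaged 19.5, 19.3 and 20.2 FPKM in dTgDox, dTg and Ct. The inhibitory Smads did not pass. Smad6 averaged 0.699, 0.765 and 0.674 FPKM, and Smad7 7.41, 9.18 and 9.30 FPKM. Smad7 was called against dTg without dTg replicate 7 (adjusted p = 0.0301) or with 13 libraries (0.0322), and against Ct with 13 libraries (0.0469).

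**Figure D4:**
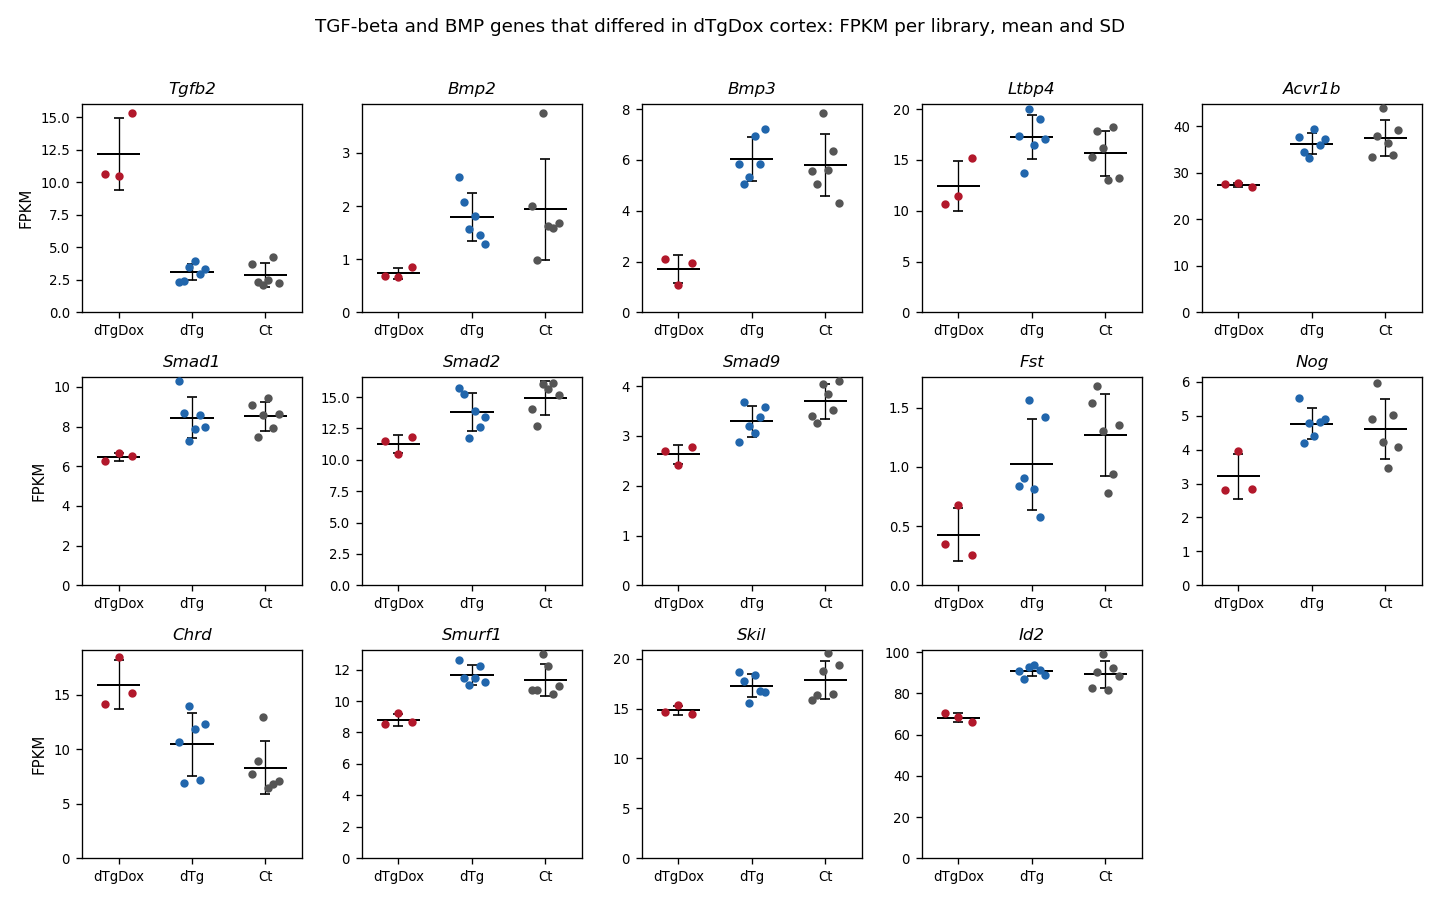
FPKM in each library (points) for the 14 members called in dTgDox against dTg or Ct, with group mean and SD; each axis starts at 0. For Tgfb2 and Chrd the dTgDox points lie above all others, and for Bmp2, Bmp3, Acvr1b, Smad1, Smad9, Smurf1, Skil and Id2 they lie below all others.

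Secreted antagonists moved in both directions. Noggin (Nog), which binds BMPs and blocks their receptor contacts, had 2.82, 3.97 and 2.85 FPKM in dTgDox, against 4.18, 4.79 and 5.52 FPKM in dTg and 3.47, 4.57 and 5.96 FPKM in Ct. The dTgDox libraries lay below dTg and overlapped Ct through replicate 2. Differences were -0.52 ± 0.14 against dTg (adjusted p = 0.0195) and -0.46 ± 0.14 against Ct (0.0336). The call against dTg ended without dTgDox replicate 1 or 3 (0.103 and 0.0985). The call against Ct ended without those (0.15 and 0.143) and without Ct replicate 1, 2 or 5 (0.0563, 0.0532 and 0.0583). It also ended with no filter (0.0516), with 13 libraries (0.0644), with 16 libraries (0.092) and with only dTgDox and Ct in the fit (0.0768).

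Follistatin (Fst), which sequesters activins, was near the lower end of measurement. It had 0.352, 0.678 and 0.255 FPKM in dTgDox, against 0.577, 0.874 and 1.56 FPKM in dTg and 0.777, 1.33 and 1.68 FPKM in Ct. Only dTgDox replicate 2 reached the 0.5 FPKM of the filter, while every dTg and Ct library did. The gene was thus tested through its dTg and Ct values. The dTgDox libraries lay below Ct and overlapped dTg through replicate 2. Differences were -0.70 ± 0.22 against dTg (adjusted p = 0.0394) and -0.93 ± 0.22 against Ct (0.00909). The call against dTg ended without dTg replicate 3, 4 or 7 (0.0514, 0.0654 and 0.0748) or dTgDox replicate 1 or 3 (0.134 and 0.178), and the call against Ct without dTgDox replicate 3 (0.0593). It also ended against dTg with a pseudocount of 1 (adjusted p = 0.0503) or no filter on low values (0.0598), with 13 libraries (0.0741), and with only dTgDox and dTg in the fit (0.0611). With the replicate block the call against dTg ended too (0.144). With 16 libraries neither call held (0.434 against dTg and 0.116 against Ct).

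Chordin (Chrd), an antagonist that binds BMPs, was higher in dTgDox against Ct. It had 14.2, 18.5 and 15.1 FPKM in dTgDox, against 6.89, 11.2 and 13.96 FPKM in dTg and 6.45, 7.42 and 12.9 FPKM in Ct. All 3 dTgDox libraries lay above the other 12, the lowest by a small margin over the highest dTg library. The difference was 0.93 ± 0.23 against Ct (adjusted p = 0.0116) and 0.62 ± 0.23 against dTg (0.0755). The call against Ct ended without dTgDox replicate 2 (0.0582) or with the replicate block (0.0869). Against dTg the difference was called only without Ct replicate 3 (0.0394) or dTg replicate 4 (0.0441). Bambi, a pseudoreceptor that lacks kinase activity, had 1.45, 1.202 and 1.43 FPKM in dTgDox, 0.560 to 1.33 FPKM in dTg and 0.407 to 1.53 FPKM in Ct, and differed by 0.56 and 0.52 without passing the adjusted threshold (0.119 and 0.144), although the difference against dTg passed with only those groups in the fit (0.0492).

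Inside the cell, Smurf1, a ubiquitin ligase that targets BMP Smads and receptors, was lower in dTgDox. It had 8.51, 9.23 and 8.65 FPKM, against 10.99, 11.5 and 12.6 FPKM in dTg and 10.5, 10.8 and 12.9997 FPKM in Ct. Every dTgDox library lay below all dTg and Ct libraries. Differences were -0.39 ± 0.07 against dTg (adjusted p = 0.00222) and -0.35 ± 0.07 against Ct (0.00472). Each held without any single library and was lost with 16 libraries (0.433 and 0.278). The call against dTg was also lost with the replicate block (0.0504). Smurf2, its close relative, averaged 8.81, 8.38 and 8.60 FPKM in dTgDox, dTg and Ct and was not called.

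Skil, which encodes the Smad corepressor SnoN, had 14.7, 15.3 and 14.4 FPKM in dTgDox, against 15.6, 17.3 and 18.6 FPKM in dTg and 15.8, 17.6 and 20.5 FPKM in Ct. Its libraries lay just below the other 12. The difference of -0.26 ± 0.08 against Ct was called (adjusted p = 0.0425), but not in 9 of 15 fits that left out a library (0.0505 to 0.139; Ct replicates 3, 4 and 6, dTg replicates 3, 6 and 7, and each dTgDox replicate). It also ended with no filter (0.0633), without trend and robust settings (0.0501) and with only dTgDox and Ct in the fit (0.0766). With the replicate block (0.207) or with 16 libraries (0.371) it ended too. That of -0.21 ± 0.08 against dTg was not called (0.0896). Ski, the related corepressor with an 8mer, had 29.5 to 31.3 FPKM in dTgDox, 26.8 to 31.4 in dTg and 28.4 to 34.05 in Ct. Tgif1, another corepressor, averaged 1.19986, 0.853 and 0.886 FPKM, and neither passed.

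The Id genes, direct targets of BMP Smads in many cell types, did not move together. Id2 had 70.3, 68.6 and 65.9 FPKM in dTgDox, against 86.9, 91.0 and 93.8 FPKM in dTg and 81.6, 89.6 and 99.3 FPKM in Ct. The dTgDox libraries lay below the other 12. Differences were -0.41 ± 0.06 against dTg (adjusted p = 0.000245) and -0.38 ± 0.06 against Ct (0.000412), and each held without any single library. With 16 libraries the call against dTg held (0.0153) and that against Ct did not (0.0573).

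Id1, Id3 and Id4 were not called, and each had a positive difference. Id1 averaged 14.8 ± 1.29 FPKM in dTgDox, 13.7 ± 2.17 in dTg and 11.9 ± 0.665 in Ct, with an adjusted p of 0.0586 against Ct (0.0254 without dTg replicate 4, 0.0212 with only dTgDox and Ct in the fit). Id3 averaged 30.3 ± 1.39, 25.0 ± 3.72 and 26.6 ± 2.90 FPKM in the same order. Id4 averaged 42.9 ± 2.37, 34.9 ± 6.59 and 37.3 ± 6.04 FPKM. Id2 was thus the highest of the 4 per length in every group and the member of the family with a negative difference in the dTgDox comparisons.

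A longer list of 94 other pathway genes, of which 93 matched and 70 passed the filter, was read in the same fit. None was called between dTg and Ct, with 1 at an unadjusted p under 0.05. In dTgDox 8 were higher and 10 lower than in dTg (25.7% of 70), where 18.9% of all tested genes were called, 9.65% higher and 9.22% lower. Against Ct, 9 were higher and 11 lower (28.6%), where 19.7% of genes were called, 9.86% higher and 9.85% lower. The 4 largest differences by size, in Lefty1, Dcn, Sostdc1 and Chrdl1, were in ligands and in antagonists or matrix genes.

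Lefty1, a secreted inhibitor of Nodal signalling, had 8.15, 10.4 and 8.21 FPKM in dTgDox, against 0.371 to 0.951 FPKM in dTg and 0.272 to 1.03 FPKM in Ct. The difference was 2.92 ± 0.22 against dTg (adjusted p = 6.15e-07) and 3.15 ± 0.22 against Ct (3.32e-07). Lefty2, a near-identical neighbour that may share reads with it, had 2.18, 2.61 and 1.78 FPKM in dTgDox, 0.175 to 0.928 in dTg and 0.148 to 1.07 in Ct. The split between the pair is uncertain. Its differences were 1.44 and 1.67 (adjusted p = 0.00345 and 0.00117).

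Chrdl1, a chordin-like BMP antagonist, had 1.64, 1.85 and 1.90 FPKM in dTgDox, against 6.27 to 9.90 FPKM in dTg and 5.08 to 8.50 FPKM in Ct. Every dTgDox library lay below all dTg and Ct libraries, and the differences were -1.81 ± 0.15 and -1.75 ± 0.15 (adjusted p = 1.69e-06 and 2.08e-06). Chrd was thus higher against Ct while Chrdl1 was lower against both groups. Pmepa1, a TGF-beta target that in turn restrains Smad2 and Smad3, had 8.06, 7.94 and 7.42 FPKM in dTgDox, against 14.8 to 21.7 FPKM in dTg and 16.5 to 21.4 FPKM in Ct. Its differences were -1.10 and -1.19 (adjusted p = 6.83e-06 and 2.9e-06; 0.279 and 0.0955 with 16 libraries). Cdkn1a, a cell cycle inhibitor induced by TGF-beta in epithelial cells, had 6.39, 4.27 and 2.96 FPKM in dTgDox, 10.3 to 18.8 in dTg and 8.74 to 29.2 in Ct, with differences of -1.53 and -1.69 (adjusted p = 0.00427 and 0.00211).

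Some of these genes are also markers of other tissue. Decorin (Dcn), a matrix proteoglycan that binds TGF-beta, is on the leptomeningeal list too, where it was the marker higher in all 3 dTgDox libraries than in the other 12. It had 50.4, 11.06 and 54.6 FPKM in dTgDox, 3.99 to 10.9 in dTg and 3.71 to 11.04 in Ct, so replicate 2 barely exceeded the highest Ct library. Differences were 2.16 ± 0.45 and 2.34 ± 0.45 (adjusted p = 0.00514 and 0.00301), and the call against dTg was lost with the replicate block (0.0559). The lowest Dcn value in dTgDox was in replicate 2, the library with the lowest leptomeningeal sum, which counts Dcn itself. Sostdc1, a BMP antagonist, had 0.984, 1.21 and 15.5 FPKM in dTgDox, and the high value was in replicate 3, which had the choroid plexus sum of 2340 FPKM. Its differences of 1.88 and 2.04 (adjusted p = 0.0438 and 0.0298) were lost without replicate 3 (0.209 and 0.125). The call against dTg was lost in 9 other fits without a library (Ct replicates 1 to 5 and dTg replicates 3, 4, 5 and 7, 0.0503 to 0.0792). The call against Ct was lost in 2 (Ct replicates 1 and 3, 0.0525 and 0.0571). Both calls were lost with 16 libraries (0.201 and 0.0967) and with the replicate block (0.114 and 0.0671).

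Of the remaining genes among the 8 largest differences, Hfe2, the BMP coreceptor hemojuvelin, was at 0.0667 to 0.142 FPKM in dTgDox, 0.279 to 1.17 in dTg and 0.271 to 0.783 in Ct. No dTgDox library reached the 0.5 FPKM of the filter, so the gene was tested through dTg and Ct values. It was called against dTg with a difference of -1.05 (adjusted p = 0.0043, and 0.0833 with 16 libraries). Against Ct the difference of -0.74 was also called (adjusted p = 0.0299). That call ended without dTgDox replicate 1, 2 or 3 (0.0723, 0.0779 and 0.106) or Ct replicate 2, 3 or 4 (0.0541, 0.0571 and 0.053). With the replicate block neither Hfe2 call held (0.106 against dTg and 0.15 against Ct). Fstl4, a follistatin-like gene, averaged 2.16 ± 0.503 FPKM in dTgDox, 4.99 ± 1.05 in dTg and 5.29 ± 1.06 in Ct. Its differences were -1.04 against dTg (adjusted p = 0.00108) and -1.12 against Ct (adjusted p = 0.000601).

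In the library deposited as both dTg 1 and Ntg 1, 15 members lay above all 15 other libraries, 13 below and 17 within their range. The 28 outside make 62.2% of members, against 54.8% of all tested genes. Its correlation with the other libraries across genes was 0.867 to 0.882, where the 15 had 0.937 to 0.968 among themselves. Bmp5 stood at 8.14 FPKM and Ltbp3 at 18.5 FPKM, against highest values of 1.204 and 7.41 FPKM elsewhere. Bmp3 was at 0.0125 FPKM, and Fst was listed at 0. Id2 reached 136 FPKM. Its label cannot be settled from its titles, so none of these values is read as a transgene effect.

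**Figure D5:**
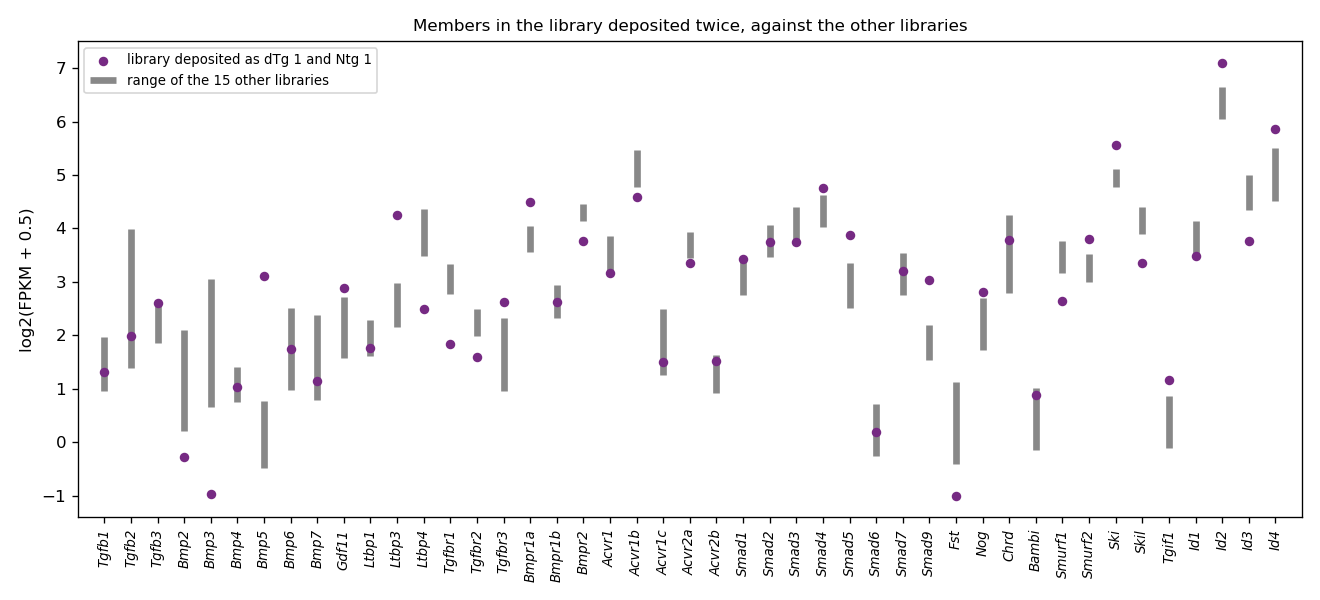
Level of each member, log2(FPKM + 0.5), in the library deposited as both dTg 1 and Ntg 1 (purple) beside the range of the 15 other libraries (grey bars). Of the 45 members 15 lie above, 13 below and 17 within the range, with Bmp5, Ltbp3, Smad9 and Bmp3 far outside.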

How the data were processed

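Values in FPKM per gene were deposited by the authors, in a 2-column file per library; per the submitters' processing notes the tools included TopHat2 and DESeq (no versions). Build, annotation and quantifier: not given in the sources used here. Per the labels' protocols, libraries were polyA-selected and single-end. FPKM values carry no counts, so no count model was used.

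Symbols were matched to Ensembl identifiers with GENCODE M21 (45139 matched, 934 not). Of 17 files, the identical pair was kept apart as 1 library. The remaining 15 were fitted together with limma 3.58.1 (R 4.3.3) on log2(FPKM + 0.5), trend and robust, with the Benjamini-Hochberg adjustment over the 19064 genes that reached 0.5 FPKM in 3 or more libraries; the code was tested on simulated data. Differences are first-named minus second-named group. Called means an adjusted p under 0.05. Library values are given for every called member and for Tgfbr2, Tgfbr1, Tgfb1 and Smad3, and of other pathway genes for at most the 8 largest called differences in a comparison. Members and lists were chosen with earlier results of these data known. Alternatives covered the pseudocount, filter, rescaling, libraries used, empirical Bayes settings and a replicate block. The labels do not say which flow cell held which library.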

Additional observations from a re-analysis of the deposited data

Results flagged for a closer look

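In 90 groups of 6 libraries (45 members in dTg and in Ct), a library was listed where its gap to the nearest other exceeded the usual 95% limit of Dixon's ratio; chance lists about 1 in 20 groups. Those in dTg were Tgfbr1, with 8.83 FPKM in replicate 6 (others 7.34 to 7.82), Bambi, with 1.33 FPKM in replicate 3 (others 0.560 to 0.745), and Ski, with 26.8 FPKM in replicate 5 (others 29.8 to 31.4). Those in Ct were Bmp2, with 3.76 FPKM in replicate 3 (others 0.978 to 2.01), Acvr1, with 13.98 FPKM in replicate 1 (others 9.48 to 10.9), and Id3, with 21.1 FPKM in replicate 2 (others 26.2 to 29.1).

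The library deposited as both dTg 1 and Ntg 1, which enters no comparison, exceeded the highest Ct library by over 1.5 times for 4 members. Bmp5 was at 8.14 FPKM there (Ct at most 0.923), Ltbp3 at 18.5 FPKM (Ct at most 7.41), Tgfbr3 at 5.67 FPKM (Ct at most 2.99) and Smad9 at 7.68 FPKM (Ct at most 4.09).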

How the results depend on the processing

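No member was called between dTg and Ct under any alternative run. With 16 libraries, 4 members were called in dTgDox against dTg and 4 against Ct (10 and 13 with 15 libraries), and 9 and 11 other pathway genes (18 and 20), where 8.01% and 7.84% of all genes were called. Same-numbered libraries did not deviate together (10 pairs, r -0.19 to 0.08, median -0.01), and 1 of 14 libraries correlated best with its own number. These values cannot settle whether numbers mark a pairing or batch, since libraries within a group also differed in marker sums. The replicate block gave 5 and 9 members and 12 and 16 other genes (all genes, 8.19% and 12.6%). It dropped Ltbp4, Acvr1b, Smad1, Fst and Smurf1 against dTg, and Smad1, Smad2, Chrd and Skil against Ct. Leaving out each library in turn gave 5 to 11 members against dTg and 9 to 14 against Ct, and 14 to 21 and 12 to 21 other genes; 5 of 10 and 6 of 13 member calls held in each such fit. The lowest counts came without a dTgDox library: 5 and 6 members against dTg without replicates 1 and 3 (all genes, 11% and 11.4%), and 12 other genes against Ct without replicate 3 (all genes, 12%). Pseudocounts, filters, rescaling, 13 libraries, the empirical Bayes settings and fits of only the groups compared gave 9 to 11 members against dTg and 11 to 14 against Ct. Over 1404 alternative values of the 18 members given in full, 1328 stayed called or stayed uncalled, 69 lost a call and 7 gained one. No called value reversed direction (0). Among the 1328, 24 values uncalled in both fits changed sign. The cause of these changes was not tested. With 3 dTgDox libraries and FPKM without counts, small differences in low genes such as Smad6 and Bmp5 could not be resolved. For Fst, also a low gene, the call against dTg depended on the fit.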
